A study of Mus musculus with 58 samples.

Results

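Glucagon-gated wells at E12.5 (embryonic days are written with E) are single cells of the mouse embryonic pancreas in which 1% or more of the transcripts were Gcg, the gene of the hormone glucagon. Gcg also had to be at least 3 times as abundant as insulin (Ins1 plus Ins2), Sst, Ppy and Ghrl each. They were chosen by these hormone values among wells with at least 2000 transcripts, spike-ins left out, and at least 500 genes. There were 372 of them among the 1092 wells kept at E12.5, and 4318 wells were kept over all stages. The study sorted cells of dissociated pancreas into 384-well plates and counted their transcripts with molecular identifiers (SORT-seq). All embryos came from mip-gfp expressing female mice, in which GFP is under the mouse insulin promoter. Cells were sorted either as GFP positive (called MIP-GFP) or as live, meaning negative for a viability dye with no choice by GFP. The E12.5 wells come from 4 plates, a MIP-GFP and a live plate of each of 2 experiments, EP11 and EP18. The 720 other kept wells of the same plates, and 184 wells chosen by the same gate at E13.5 (EP12), E14.5 (EP14) and E15.5 (EP10 and EP17), serve for comparison.

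The stage follows the developmental stage given for each library. The titles of the MIP-GFP libraries of EP11 and EP18 give E15.5 instead, so the main stage results are also given for live wells alone, whose titles and stages do not differ. The experiment is the replicate, and nothing in the labels says that its embryos came from separate litters, so p-values measure only the spread between these experiments. The 15 E12.5 libraries with a plate share plate names, so wells could not be assigned to single libraries. The EP11 live plate held transcripts in all 384 wells although 3 libraries are listed for it, and some of its wells may belong to no listed library. Another 2 E12.5 libraries carry no experiment number and were not analysed here.

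Glucagon is made by the alpha cells of the islets and is cut from a precursor protein by the convertase encoded by Pcsk2. Cells that contain glucagon are among the earliest hormone cells of the mouse pancreas. They arise from epithelial progenitors through precursors that transiently express the transcription factor gene Neurog3. Irx1 and Irx2 encode transcription factors of the alpha lineage, while Pax4 favours the beta lineage.

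The stretch around the start of Gcg is shown because Gcg defines the gate. Gcg lies on the minus strand at chr2:62474530-62483650 of mm10. The sequence is from RefSeq (GRCm38.p6), chr2:62483604-62483903, minus strand, with the TATAAA motif and its reverse complement in capitals. The matches begin 72 and 24 bases before the start site. TATAAA on either strand occurs in 13.6% of the 32851 promoter windows of the same length (4473 windows), and a match describes letters only.
Gcg: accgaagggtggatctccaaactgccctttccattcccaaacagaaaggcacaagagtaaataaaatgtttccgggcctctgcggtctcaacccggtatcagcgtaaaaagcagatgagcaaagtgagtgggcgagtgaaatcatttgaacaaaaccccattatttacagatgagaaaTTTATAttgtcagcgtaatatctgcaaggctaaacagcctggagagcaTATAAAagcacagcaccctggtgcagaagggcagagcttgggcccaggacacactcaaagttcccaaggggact

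Most of the gated wells were on MIP-GFP plates. On these plates 355 of 522 kept wells were glucagon-gated, against 17 of 570 on live plates. These shares follow from the gate and are given without a test. The gated wells of the MIP-GFP plates had a median of 28425 transcripts and 6496.5 genes in EP11 and of 9808 transcripts and 3751 genes in EP18. Those of the live plates had a median of 32269 transcripts in EP11 and 7021 in EP18. EP18 thus held fewer transcripts per well, and its values carry the larger counting error.

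Gcg took a median of 4.14% of the transcripts (quartiles 2.93% and 5.14%, highest 9.72%) in the 256 gated MIP-GFP wells of EP11. In the 99 of EP18 the median was 4.29% (quartiles 3.11% and 6.15%, highest 13.6%). The 6 gated live wells of EP11 had a median of 3.19% and the 11 of EP18 one of 5.69%. The quartile ranges of the 4 plates overlap. The correction for colliding identifiers holds a gene at 1597 transcripts per well, and Gcg lay at this ceiling in 95 and 3 gated wells of EP11 (MIP-GFP and live) and in 5 and 0 of EP18, so its share is understated there.

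The wells nearest the 1% line show how sharp the gate is. On the MIP-GFP plates the lowest gated wells had 1.05% and 1.07% (EP11) and 1.06% and 1.11% (EP18) Gcg, and the highest wells below the line had 0.962% and 0.957% (EP11) and 0.995% and 0.674% (EP18). On the live EP11 plate the lowest gated wells had 1.495% and 1.61%, and the highest below the line had 0.0489% and 0.0393%, so Gcg split this plate with a wide gap. On the live EP18 plate the lowest gated wells had 1.33% and 1.74%, and the highest below the line had 0.802% and 0.638%. A further 8 MIP-GFP wells with Gcg above 1% were kept out by another hormone, 7 of them by Ghrl and 1 by insulin.

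**Figure D1:**
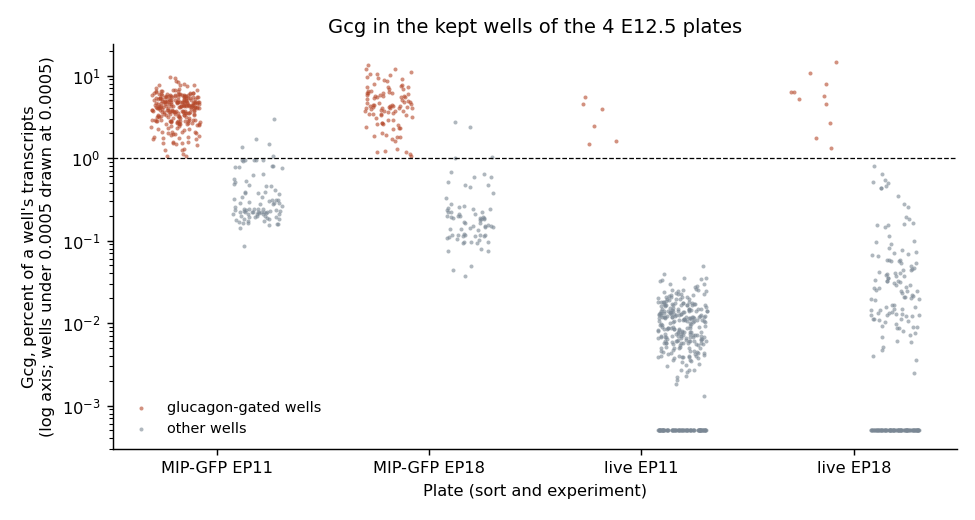
Each point is a kept well of 1 of the 4 E12.5 plates, placed by the percent of its transcripts that were Gcg (log axis), with gated wells in their own colour and the 1% line dashed. Gated wells fill most of the MIP-GFP plates (256 of 349 wells in EP11, 99 of 173 in EP18), and on the live EP11 plate no other well lies above 0.0489%.

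Gcg transcripts were also present in wells of other cells. On the MIP-GFP plates the wells with at least 5 transcripts of the immune genes Tyrobp, Fcer1g and Ptprc, which should not express Gcg, all held some: a median of 0.214% over 36 wells in EP11 and 0.150% over 59 wells in EP18. That was 5.18% and 3.49% of the median in the gated wells of the same plates, at median depths of 20295 and 10555 transcripts. On the live plates, collagen-rich wells held a median of 0.00707% (174 wells, EP11) and 0.0122% (79 wells, EP18). The source of the Gcg transcripts in immune-marked and collagen-rich wells was not tested.

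The label was checked against Irx2, which the gate did not use. At least 1 Irx2 transcript was present in 253 of 256 and 88 of 99 gated MIP-GFP wells and in 6 of 6 and 8 of 11 gated live wells (EP11 and EP18). After thinning every well to 5000 transcripts, Irx2 was detected in 91.7% (EP11, 252 wells) and 88.6% (EP18, 79 wells) of gated MIP-GFP wells, against 8.57% and 5.88% of immune-marked wells of the same plates. The wells thus carry the second marker named for them, at a higher share than immune-marked wells. Irx2 was also present in the precursor-gated wells described below, and its difference from those did not pass the test. Nor did its difference from the other wells of MIP-GFP plates alone.

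Other hormones were present at low levels in a minority. In the MIP-GFP wells of EP11, Ghrl reached 0.1% of the transcripts in 41 of 256 gated wells (16.02%, highest 1.19%), insulin in 16 (6.25%, highest 0.400%), Ppy in 12 and Sst in 1. In EP18 insulin reached 0.1% in 15 of 99 (15.2%), Ghrl in 10 (10.1%, highest 0.802%), Ppy in 6 and Sst in 1. Of the gated live wells, Ppy reached 0.1% in 1 of 6 in EP11 and no other hormone did in the 11 of EP18. The gate caps these values, so they describe the wells and carry no test.

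Against the 720 other kept wells of the same plates, the gated wells had higher levels of alpha-lineage and pan-endocrine transcription factors, granule proteins, processing enzymes and exocytosis genes, and lower levels of cell cycle, progenitor, mesenchyme, immune and immediate early genes. Counts were summed per experiment and class and fitted with edgeR's quasi-likelihood test over 12 sums from E12.5 to E15.5, with Benjamini-Hochberg adjustment. At adjusted p below 0.05, 9.92% of 13995 genes were higher (1389) and 12.3% were lower (1719) in gated wells. These counts are a description: the wells were split by transcripts of these same wells, the hormone genes of the gate are left out, and no p-value is given for single genes. With the experiment as a block, which fits because both classes share plates, 3028 genes were higher and 3541 lower. Levels below are CPM (counts scaled to a fixed total, per 1e6 transcripts) of a class's summed wells, given for EP11 and then EP18, and are compared within a gene, not between genes.

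Among the alpha-cell identity genes, 12 of 19 tested were higher and 2 lower. Irx2 had 622 and 611 CPM in gated wells, against 78.6 and 39.3 CPM in other wells, a log2 difference of 3.40 ± 0.38 (SE). Irx1 had 478 and 512 CPM in gated wells, against 50.6 and 25.3 CPM in other wells (log2 3.72 ± 0.35). Both gated sums of each of these genes lay above both sums of other wells. Peg10, an imprinted gene derived from a retrotransposon, had 3466 and 5682 CPM in gated wells, against 469 and 450 CPM in other wells.

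Transport and secreted proteins of the alpha cell moved with these factors. Tmem27, encoding the membrane protein collectrin, had 3842 and 3954 CPM in gated wells, against 271 and 149 CPM in other wells (log2 4.24 ± 0.48). Slc38a5, a glutamine transporter, had 15190 and 8571 CPM in gated wells, against 1539 and 361 CPM in other wells. Ttr, encoding transthyretin, had 10370 and 8897 CPM in gated wells, against 863 and 557 CPM in other wells. The list members that were lower were Gc, the vitamin D binding protein, with 36.2 and 63.3 CPM in gated wells against 301 and 435 CPM in other wells, and the Wnt ligand gene Wnt5a.

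Of the endocrine transcription factors, 11 of 22 tested were higher and 4 lower. Isl1, a LIM homeodomain factor of all islet cells, had 1571 and 1494 CPM in gated wells, against 302 and 151 CPM in other wells. Pax6 had 710 and 720 CPM in gated wells, against 113 and 47.8 CPM in other wells. Neurod1 had 1012 and 890 CPM in gated wells, against 212 and 42.3 CPM in other wells. The lower members were Neurog3, Hhex, Sox4 and Sox11. Neurog3 had 3.50 and 6.87 CPM in gated wells, against 93.8 and 5.80 CPM in other wells, so the gated wells were lower in EP11 alone, and without EP11 the log2 difference was 0.17.

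Secretory granule genes were mostly higher: 15 of 16 tested granin and granule content genes were higher, none lower, with a median log2 difference of 3.29 against -0.02 over all genes tested. Chga, encoding chromogranin A, had 1403 and 969 CPM in gated wells, against 154 and 28.0 CPM in other wells. Pcsk1n, encoding the granin-like proSAAS, had 682 and 1033 CPM in gated wells, against 56.6 and 38.2 CPM in other wells. Of the prohormone processing genes 6 of 10 were higher and none lower. Pcsk2, the convertase that releases glucagon, had 1830 and 1599 CPM in gated wells, against 198 and 70.3 CPM in other wells (log2 3.71 ± 0.52). Pcsk1, the convertase that releases GLP-1 from the same precursor, had 51.6 and 70.2 CPM in gated wells, against 18.6 and 14.3 CPM in other wells (log2 1.87 ± 0.33).

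Genes of the secretion machinery were mostly higher. Of 22 exocytosis and excitability genes tested, 15 were higher and 1, the sodium channel gene Scn9a, was lower. Abcc8, the sulfonylurea receptor of the ATP-sensitive potassium channel, had 457 and 582 CPM in gated wells, against 86.8 and 56.0 CPM in other wells. Its pore subunit gene Kcnj11 had 75.5 and 99.95 CPM in gated wells, against 29.6 and 18.4 CPM in other wells. Snap25, a SNARE protein of vesicle fusion, had 87.4 and 88.5 CPM in gated wells, against 12.52 and 7.17 CPM in other wells.

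Other peptide genes were higher as well, 8 of 15 tested with none lower: Calca, Cartpt, Cck, Gal, Gast, Pyy, Sct and the serotonin synthesis gene Tph1. Pyy, the gut peptide YY, had 5388 and 12840 CPM in gated wells, against 532 and 534 CPM in other wells. Cartpt had 891 and 599 CPM in gated wells, against 68.9 and 29.7 CPM in other wells. Sct, encoding secretin, had 285 and 478 CPM in gated wells, against 36.6 and 18.8 CPM in other wells. Of 17 beta-cell genes tested, 5 were higher and Nnat was lower. Iapp, the amylin gene, had 603 and 2074 CPM in gated wells, against 207 and 205 CPM in other wells.

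Cell cycle genes were mostly lower, with 36 of 40 tested lower, none higher and a median log2 difference of -3.98. Mki67, a marker of dividing cells, had 9.81 and 11.4 CPM in gated wells, against 333 and 210 CPM in other wells. Counted per well after thinning to 5000 transcripts, 9 of 252 gated MIP-GFP wells of EP11 (3.57%, Wilson 95% interval 1.89 to 6.65%) and 7 of 79 of EP18 (8.86%, 4.36 to 17.2%) held at least 3 transcripts of 17 mitotic genes. Without thinning these shares were 40.5% and 38.0%. The same thinned share was 74.3% and 62.7% of the immune-marked wells on the same plates (26 of 35 and 32 of 51) and 57.3% and 54.5% of collagen-rich wells on the live plates (98 of 171 and 30 of 55). Of precursor-gated wells, defined below by Neurog3 or Fev, 1 of 42 on the EP11 MIP-GFP plate (2.38%, 0.421 to 12.3%) and 7 of 19 on the EP11 live plate (36.8%, 19.1 to 59.0%) did. The intervals of glucagon-gated and precursor-gated wells of the EP11 MIP-GFP plate overlap. These intervals cover counting error only.

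Part of the genes of earlier epithelium were lower with both sorts pooled. Of 18 progenitor factors tested 9 were lower and 1, Onecut2, was higher. On the live plates the progenitor list summed to 538 and 1512 CPM in gated wells, against 2636 and 3377 CPM in other wells. On the MIP-GFP plates it summed to 478 and 388 CPM, against 442 and 165 CPM, so it was not lower there. Sox9, a factor of progenitors and ducts, had 15.7 and 35.1 CPM in gated wells, against 390 and 419 CPM in other wells. With MIP-GFP plates alone Sox9 did not pass. Of 23 Notch pathway genes 9 were lower and 4 higher. The Notch target Hes1 had 7.26 and 8.39 CPM in gated wells, against 249 and 140 CPM in other wells, whereas the divergent ligand Dll3 had 48.7 and 64.8 CPM in gated wells, against 8.51 and 4.10 CPM in other wells.

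The calls of this contrast changed with the plates and wells used, and the part of each kind of other well was not tested. Mesenchyme genes (13 of 17 tested lower) and immune genes (10 of 14 lower) mark cells that make up much of the other wells, and immediate early genes, which dissociation can raise, were lower too (16 of 20). With MIP-GFP plates alone 53 genes were higher and 922 lower, and with live plates alone 171 were higher and 112 lower. On the MIP-GFP plates the mesenchyme list summed to 355 and 424 CPM in gated wells, against 299 and 290 CPM in other wells. With MIP-GFP plates alone the log2 difference was 1.29 for Irx2, 1.58 for Pcsk2, -0.09 for Sox9 and -0.03 for Pcsk1, none of them past the threshold, and Gc turned to 0.90. Without EP11, 386 genes were higher and 344 lower, and without EP18, 323 and 583. Pyy did not pass without either of them, and Pcsk1 did not without EP18. With only the wells the authors kept in a smaller table, 10 genes were higher and 406 lower. Leaving out other wells with immune or erythroid transcripts was not among the alternatives that moved these counts (listed further below). On the MIP-GFP plates 92 of 93 (EP11) and 63 of 74 (EP18) other wells held at least 0.1% Gcg.

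**Figure D2:**
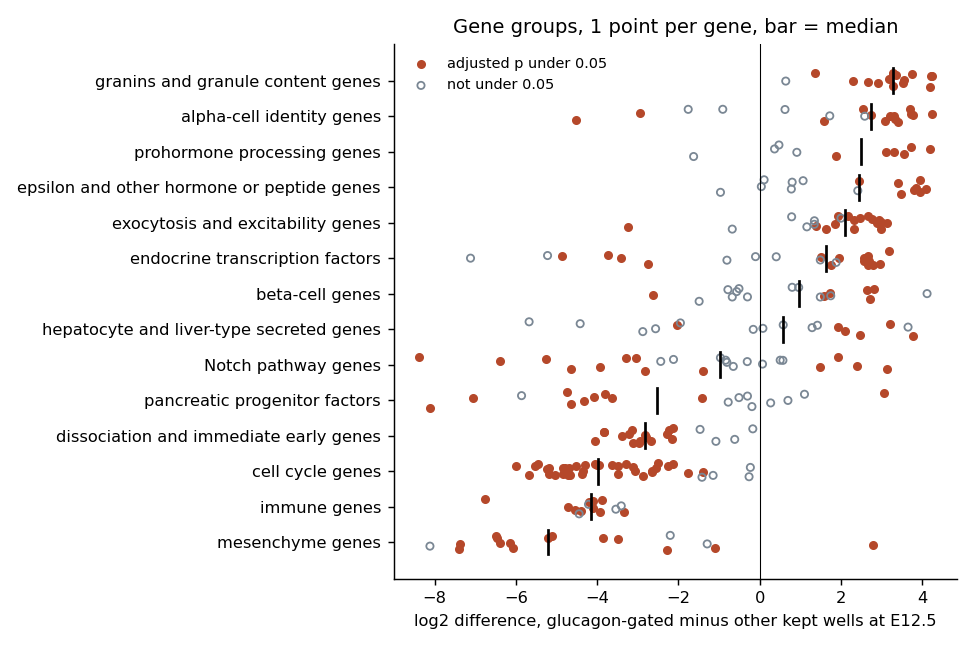
Each point is a gene placed by its log2 difference, glucagon-gated minus other kept wells at E12.5, in rows of gene lists, with the bar at the median of the list. The granin list has its median at 3.29 and the cell cycle list at -3.98, against -0.02 over all genes tested.

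The nearest endocrine cells on these plates were precursor-gated wells, outside every hormone gate with at least 2 transcripts of Neurog3 or Fev. Only EP11 had enough of them for a sum (61 wells), since EP18 had 7, so the fit of 11 sums assumes that this sum varies like the others. The gated wells were lower in 0.437% of 12119 genes (53) and higher in 0.00825%, a single gene, at adjusted p below 0.05 in edgeR's quasi-likelihood test. At an unadjusted p below 0.05 there were 889. The alpha-cell identity genes (0 of 18) and the granule genes (0 of 16) did not pass in either direction, and Irx2 and Pcsk2 had 364 and 927 CPM in the precursor-gated wells. The median log2 differences of these lists were 0.57 and 0.63, against 0.02 over all genes. On simulated counts this fit recovered 4% of genes changed by a log2 difference of 1. Not passing thus does not show equal levels.

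Transcription factor genes were among those lower in the glucagon-gated wells. Pax4, which favours the beta lineage, had 14.2 and 4.58 CPM in glucagon-gated wells, against 149 CPM in precursor-gated wells (log2 -3.69 ± 0.52, edgeR adjusted p = 0.0122). Sox4, a factor active in endocrine differentiation, had 13.6 and 4.58 CPM in glucagon-gated wells, against 193 CPM in precursor-gated wells (log2 -4.13 ± 0.46, edgeR adjusted p = 0.0027). With Hhex and Neurod2 they were 4 of 19 endocrine transcription factors tested, and none of that list was higher. With MIP-GFP plates alone Pax4 still passed, Sox4 and Neurod2 did not, and Hhex turned to a log2 difference of 5.53. Neurod2 had 0 transcripts in both glucagon-gated sums, against 12 in the precursor-gated sum.

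Tead2, a partner of the Hippo effector Yap, had 2.29 and 5.34 CPM in glucagon-gated wells, against 164 CPM in precursor-gated wells (log2 -5.63 ± 0.50, edgeR adjusted p = 0.000995). Amotl2, a Yap-binding junction protein, had 11.6 and 19.1 CPM in glucagon-gated wells, against 276 CPM in precursor-gated wells (log2 -4.15). Pard3, a polarity protein, had 14.9 and 7.63 CPM in glucagon-gated wells, against 297 CPM in precursor-gated wells (log2 -4.50). The imprinted genes H19 (log2 -4.68) and Nnat (log2 -3.70) and the progenitor factor Sox9 (log2 -2.64) were lower too.

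The gene that was higher was Rgs4, a regulator of G protein signalling, with 70.3 and 111 CPM in glucagon-gated wells, against 14.9 CPM in precursor-gated wells (log2 2.70 ± 0.47, edgeR adjusted p = 0.0366). With the experiment as a block, 205 genes were higher and 614 lower. With MIP-GFP plates alone no gene was higher and 16 were lower in edgeR (445 at an unadjusted p below 0.05): Tead2, Amotl2, Pard3 and Nnat still passed, and Rgs4, H19 and Sox9 did not. Of the 61 precursor-gated wells 19 were live, against 6 of the 262 glucagon-gated wells of EP11. The calls depend on the later experiments that estimate the spread: without EP10 or without EP17 no gene passed in edgeR (831 and 822 at an unadjusted p below 0.05), and without EP18 7 were higher and 209 lower. Precursor-gated wells lie outside the hormone gates by their definition, and Neurog3 and Fev are not compared.

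The gated wells of E12.5 differed from the gated wells of E13.5 to E15.5 in a small set of genes. Their alpha-lineage factors did not pass the test, while liver-type secreted genes, Irs4, Mboat4, Gal and the factor Foxa1 were higher and Meis2, Scgn, Slc30a8 and Adh1 lower at E12.5. In edgeR's quasi-likelihood test over 6 sums, 0.584% of 11134 genes were higher (65) and 0.305% lower (34) at E12.5. At an unadjusted p below 0.05 there were 1261. Values below are in CPM for EP11 and EP18 at E12.5, then EP12 (E13.5), EP14 (E14.5), EP10 and EP17 (both E15.5).

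None of 18 alpha-cell identity genes tested passed, with a median log2 difference of 0.06 against 0.03 over all genes. Irx2 had 622 and 611 CPM at E12.5, against 709, 773, 668 and 458 CPM at the later stages (log2 -0.08 ± 0.26). Pcsk2 had 1830 and 1599 CPM at E12.5, against 1796, 2272, 2391 and 2820 CPM later (log2 -0.31 ± 0.25). For both genes the intervals of 2 SE span 0, and a test that is not passed does not show equal levels.

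Irs4, an adaptor of insulin receptor signalling (chromosome X, 141710998 to 141725263, mm10), had 99.1 and 51.9 CPM at E12.5, against 7.04, 0.678, 0 and 0 CPM later (log2 6.89 ± 0.59, edgeR adjusted p = 0.00842). Every E12.5 sum lay above every later one, and among the later sums E13.5 held most. Per well, Irs4 was patchy: after thinning it was detected in 17.5% (EP11) and 13.9% (EP18) of gated MIP-GFP wells, against 0 of 35 and 0 of 51 immune-marked wells of those plates, which allows shares of up to 8.57% and 5.88%. Foxa1, a forkhead factor of foregut endoderm, had 238 and 19 transcripts at E12.5, against 0, 1, 0 and 0 later (means of 23.2 CPM at E12.5 and 0.170 CPM later, log2 7.51 ± 0.97, edgeR adjusted p = 0.0183). It was the 1 of 19 endocrine transcription factors tested that was higher, and none was lower.

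Mboat4, the acyltransferase that activates ghrelin (chromosome 8, 34115030 to 34125182, mm10), had 246 and 166 CPM at E12.5, against 30.2, 14.2, 16.53 and 8.33 CPM later (log2 3.54 ± 0.28, edgeR adjusted p = 0.00457). Ghrl itself is capped by the gate and is given as a description: 618 and 367 CPM at E12.5, against 171, 17.0, 399 and 49.99 CPM later, so its groups overlap where those of Mboat4 do not. Gal, the neuropeptide galanin, had 232 and 135 CPM at E12.5, against 27.2, 8.82, 37.8 and 16.7 CPM later (log2 3.28 ± 0.33, edgeR adjusted p = 0.00912). Gal and Calca were the 2 of 11 other peptide genes tested that were higher, and none was lower. Cartpt had 891 and 599 CPM at E12.5, against 707, 135, 704 and 866 CPM later, with overlapping groups.

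Of 12 liver-type secreted genes tested, 6 were higher at E12.5 and none lower, with a median log2 difference of 2.28 against 0.03 over all genes. Fgb, the fibrinogen beta chain (chromosome 3, 83040141 to 83049863, mm10), had 214 and 95.4 CPM at E12.5, against 25.2, 6.11, 25.2 and 29.2 CPM later (log2 3.34 ± 0.36, edgeR adjusted p = 0.011). Serpina1a, an alpha-1-antitrypsin gene, had 512 and 286 CPM at E12.5, against 238, 37.3, 113 and 167 CPM later (log2 1.96 ± 0.30, edgeR adjusted p = 0.0263). Serpina1b behaved alike, but the Serpina1 genes are near-identical copies that can share reads, so their separate values are uncertain. Vtn, encoding vitronectin, had 25.7 and 19.1 CPM at E12.5, against 6.04, 1.36, 0.787 and 0 CPM later. Trf, encoding transferrin, passed as well, and Apoa1 passed with overlapping groups (26.9 and 21.4 CPM at E12.5, against 5.03, 0, 40.2 and 16.7 CPM later).

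The albumin gene Alb was low in the gated wells, with 11.96 and 7.63 CPM at E12.5 (89 and 10 transcripts), against 1.01, 0.678, 3.15 and 0 CPM later, and did not pass (log2 3.06 ± 0.81, edgeR adjusted p = 0.169). Afp, of the same list, did not pass either but was more widely present. Without thinning, 176 of 256 (EP11) and 37 of 99 (EP18) gated MIP-GFP wells held an Afp transcript, and 53 and 8 held one of Alb. In the other wells of the EP11 MIP-GFP plate Alb had 711 CPM. The whole liver-type list of 18 genes summed to 16620 and 15000 CPM at E12.5, against 10220, 7317, 11730 and 14850 CPM later, most of it Ttr. Fgb was present in many gated wells: after thinning it was detected in 50.4% (EP11) and 21.5% (EP18) of gated MIP-GFP wells, against 5.71% and 3.92% of immune-marked wells of the same plates.

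The promoters of Fgb and Serpina1a are shown because both genes were higher at E12.5 with both sorts pooled and hold the same motif. GTTAAT is the core of the recognition element of HNF1, a factor of liver and pancreas, and it and its reverse complement are in capitals. The matches begin 29 and 21 bases before the start sites. Of the 10 liver-type genes tested that have a promoter entry 7 hold it on either strand (Alb, Afp, Fgb, Fga, Serpina1a, Serpina1b and Vtn), against 7.1% of 32851 windows of the same length (2332 windows). The motif did not follow the stage calls: Alb, Afp and Fga hold it and did not pass, while Apoa1 passed without it. The sequences are from RefSeq (GRCm38.p6), minus strand, chr3:83049814-83050113 for Fgb and chr12:103863570-103863869 for Serpina1a, and no binding was measured.
Fgb: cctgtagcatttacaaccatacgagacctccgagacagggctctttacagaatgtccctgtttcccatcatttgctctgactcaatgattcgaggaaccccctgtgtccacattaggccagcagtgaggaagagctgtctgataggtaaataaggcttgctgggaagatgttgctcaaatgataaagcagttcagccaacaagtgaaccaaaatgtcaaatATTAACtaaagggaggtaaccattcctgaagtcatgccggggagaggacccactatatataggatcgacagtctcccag
Serpina1a: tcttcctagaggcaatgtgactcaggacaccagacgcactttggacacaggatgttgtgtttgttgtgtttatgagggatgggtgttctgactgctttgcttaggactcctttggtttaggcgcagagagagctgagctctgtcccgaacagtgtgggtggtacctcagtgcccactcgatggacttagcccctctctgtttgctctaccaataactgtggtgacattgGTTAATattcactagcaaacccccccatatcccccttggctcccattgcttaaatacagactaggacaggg

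Fetal growth regulators were higher in 2 of 9 tested, and none was lower. Mdk, the growth factor midkine, had 1813 and 1913 CPM at E12.5, against 853, 447, 297 and 400 CPM later (log2 1.93 ± 0.26, edgeR adjusted p = 0.0146). Cited1, a transcriptional coregulator, had 553 and 382 CPM at E12.5, against 210, 86.8, 59.8 and 83.3 CPM later (log2 2.17 ± 0.27, edgeR adjusted p = 0.0146). In both genes every E12.5 sum lay above every later sum, and the E13.5 sum was the highest of the later ones. None of 33 cell cycle genes tested passed in either direction.

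Genes lower at E12.5 included a homeodomain factor, a calcium sensor and a zinc transporter. Meis2, a TALE homeodomain factor (chromosome 2, 115863064 to 116065839, mm10), had 51.6 and 61.8 CPM at E12.5, against 583, 1060, 1067 and 725 CPM later (log2 -3.81 ± 0.33, edgeR adjusted p = 0.0055). Scgn, the calcium sensor secretagogin (chromosome 13, 23953456 to 23991214, mm10), had 96.1 and 102 CPM at E12.5, against 452, 543, 573 and 492 CPM later (log2 -2.30 ± 0.27, edgeR adjusted p = 0.0143). Slc30a8, the zinc transporter of secretory granules, had 30.9 and 9.92 CPM at E12.5, against 75.5, 134, 220 and 200 CPM later (log2 -2.49 ± 0.40, edgeR adjusted p = 0.0287). It was the 1 of 16 granule genes tested that was lower, and none was higher.

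Adh1, an alcohol dehydrogenase (chromosome 3, 138260991 to 138290698, mm10), had 1.21 and 2.29 CPM at E12.5, against 40.3, 87.5, 99.98 and 91.7 CPM later (log2 -5.52 ± 0.41, edgeR adjusted p = 0.00445). Nnat, an imprinted gene of neuroendocrine cells, had 60.1 and 62.6 CPM at E12.5, against 228, 312, 354 and 500 CPM later (log2 -2.29 ± 0.29). The amino acid transporter gene Slc7a8, the ephrin receptor gene Epha7 and Txnip, whose product binds thioredoxin, were lower too. The groups of Adh1 and Nnat do not overlap.

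**Figure D3:**
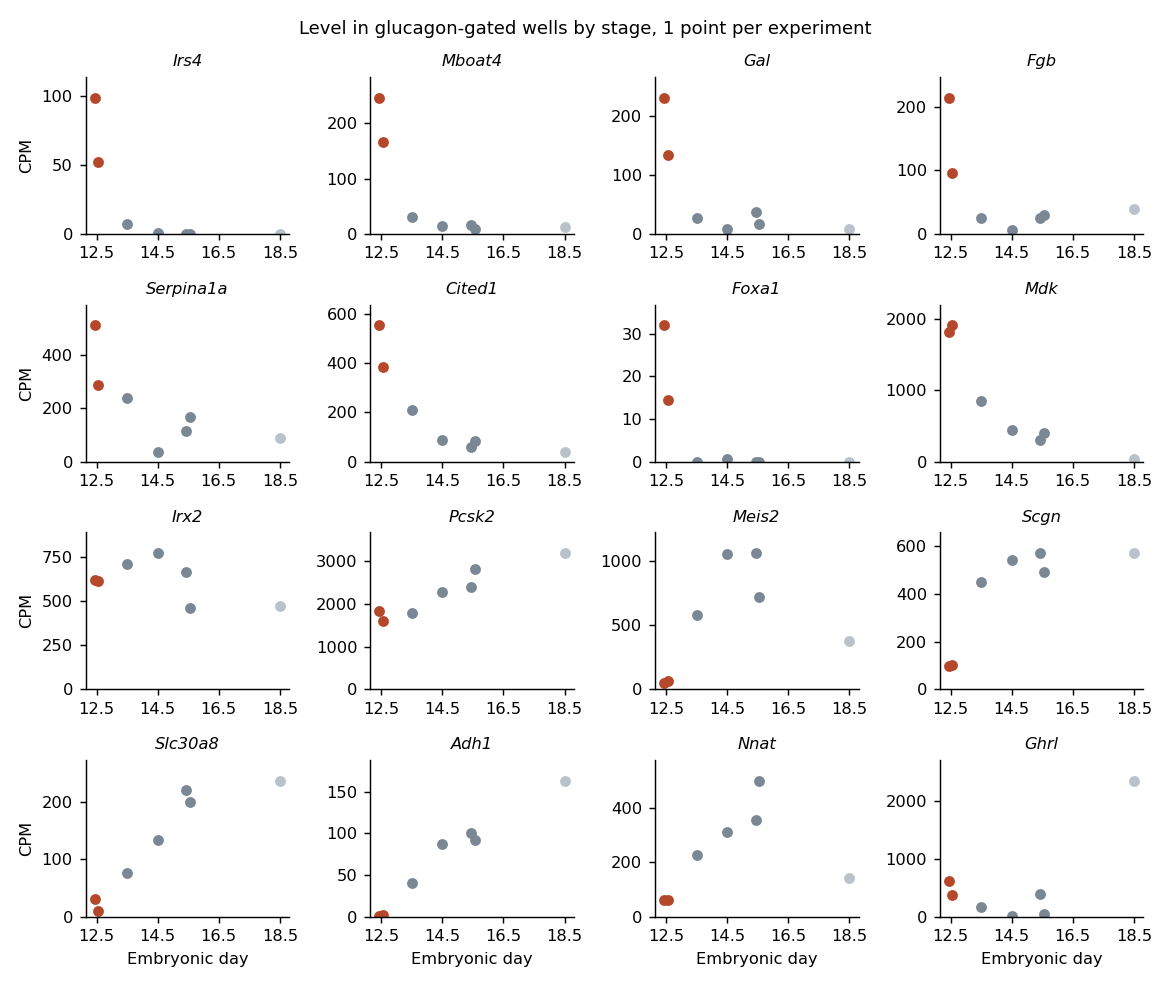
CPM in glucagon-gated wells by embryonic day, 1 point per experiment, for genes named in the text, with E18.5 (EP16, not in the test, with E14.5 in the titles of its MIP-GFP libraries) drawn for completeness. Irs4 and Mboat4 are highest in the E12.5 experiments, and Meis2 and Adh1 are lowest there, while Irx2 shows no such order.

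Live wells, whose titles give the same stage, gave 11 genes higher and 3 lower in a fit with at least 5 wells per sum, from 17 gated wells at E12.5 (6 of EP11, 11 of EP18) and the 6 of EP12 and 5 of EP17 later. Summed over all gated live wells, 17 at E12.5 and 16 later, Cited1 had 462 CPM at E12.5 and 59.6 CPM later (124 and 16 transcripts), and Scgn had 89.5 CPM at E12.5 and 518 CPM later. Meis2 had 153 CPM at E12.5 and 674 CPM later. Adh1 had 0 transcripts at E12.5 and 21 later. Mboat4 had 85.8 CPM at E12.5 and 33.5 CPM later (23 and 9 transcripts), and Gal had 74.6 CPM at E12.5 and 26.1 CPM later. All 6 differences have the sign found with both sorts pooled, but among live wells Meis2, Mboat4 and Gal did not pass and Adh1 fell under the filter on low counts. Irs4 and Foxa1 rested on MIP-GFP wells: in live wells Irs4 had 3 transcripts at E12.5 and 2 later, and Foxa1 had 2 at E12.5 and 0 later. Fgb had 17 transcripts in live wells at E12.5 and 4 later, and Slc30a8 had 1 at E12.5 and 32 later. Serpina1a had 190 CPM at E12.5 and 186 CPM later, and Nnat had 459 CPM at E12.5 and 283 CPM later, so neither was shown by live wells. For Nnat the highest gated live well held 105 transcripts in EP11 and 2 in EP18, so its live value leans on 1 well.

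The number of stage calls depended on single experiments. Without EP10 no gene passed (1201 at an unadjusted p below 0.05), without EP17 3 were higher and 2 lower, and without EP14 12 and 11. Without EP11, 279 were higher and 147 lower, and without EP18, 191 and 122. Irs4 and Adh1 passed in 17 of 18 alternatives, Mboat4, Meis2 and Scgn in 17 of 19 and Fgb in 15 of 18. An alternative that did not test a gene is left out of its total, so a total of 18 hides 1 without a test. On simulated counts for this comparison 25 unchanged genes were called. Of 100 genes changed by a log2 difference of 1 the fit recovered 43%, and of 100 changed by 2 it recovered 95%. Summed levels of other cells' marker lists also differed between the sums, and their part in the result was not tested. The immune list summed to 53.5 and 394 CPM at E12.5, against 80.2, 166, 18.1 and 45.7 CPM later, and the mesenchyme list to 357 and 481 CPM at E12.5, against 287, 290, 148 and 137 CPM later. The mesenchyme sum is no plain measure of other cells: Col1a2 made up 205.5 and 237 CPM of it at E12.5, while Col3a1 had 0.403 and 16.02 CPM at E12.5, against 5.03, 26.5, 5.51 and 0 CPM later. The immediate early list summed to 1197 and 889 CPM at E12.5, against 1005, 2201, 3542 and 2107 CPM later. The erythroid list summed to 6.61 and 1401 CPM at E12.5, the second almost wholly from 1 live well.

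Among the gated wells themselves a few genes varied far more than counting allows. Wells of the MIP-GFP plates were thinned to 5000 transcripts, and the squared coefficient of variation beyond Poisson counting (excess) was computed for 912 genes in 252 wells of EP11 and 79 of EP18. The median excess was 0.0731 in EP11 and 0.133 in EP18. Of the 20 most variable genes of each experiment, 11 were shared: Cartpt, Iapp, Scg2, Cd24a, Ghrl, Ins1, Cck, Fgb, Gal, Gpr119 and Cdkn1c. Ghrl and Ins1 are gate genes.

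Cartpt had an excess of 9.95 in EP11 and 4.41 in EP18. It was detected in 50.4% and 43.0% of the thinned wells, and its highest well held 158 and 39 transcripts. Iapp had an excess of 5.75 and 6.11 and was detected in 65.5% and 84.8% of wells, with up to 90 and 226 transcripts. Ghrl, although capped by the gate, had an excess of 4.87 and 5.89, and Ins1 4.44 and 3.48. Cartpt was thus high in some wells and not detected in others, at equal depth. At this depth a well without a transcript may still express the gene.

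Other genes varied less than these, though above the median gene. Pcsk2 had an excess of 0.112 in EP11 and 0.224 in EP18 and was detected in every thinned well of EP11 and in 98.7% of EP18. Irx2 had 0.160 and 0.170, Isl1 0.204 and 0.250, and Pyy, at its high level, 0.317 and 0.206. The precursor gene Neurog3 was detected in 0.397% and 2.53% of the thinned gated wells, whereas Fev, which the precursor gate also uses, was detected in 50.4% and 44.3%, against 5.71% and 0% of immune-marked wells (0 of 51 in EP18, which allows up to 5.88%).

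**Figure D4:**
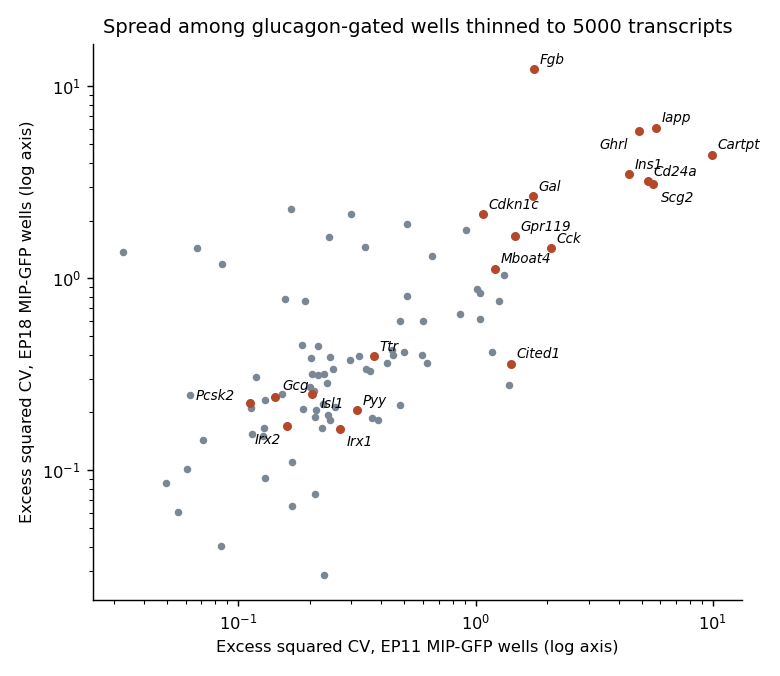
Each point is a gene placed by its excess squared coefficient of variation among gated MIP-GFP wells of EP11 (horizontal) and of EP18 (vertical), both on log axes, after thinning to 5000 transcripts. Of the 912 genes only listed, named and some further genes and the 20 most variable of each experiment are drawn. Xist and genes with an excess too low for the axes are left out. Cartpt (9.95 and 4.41) and Iapp (5.75 and 6.11) lie at the top right, and Pcsk2 (0.112 and 0.224) and Irx2 (0.160 and 0.170) lie lower on both axes.

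Some gated wells also held transcripts of genes that mark other cells. At least 10 transcripts of Col1a1, Col1a2 and Col3a1 together were present in 48 of 256 and 6 of 99 gated MIP-GFP wells and in 3 of 6 and 1 of 11 gated live wells (EP11 and EP18). On the EP11 MIP-GFP plate these were all Col1a2, present in 229 of 256 gated wells with up to 34 transcripts, while Col1a1 and Col3a1 were in 0 of 256. Col1a2 had 205 CPM in those wells, against 1.29 CPM in the immune-marked wells of the plate. At least 5 immune transcripts were present in 4 gated wells, all on the EP18 MIP-GFP plate. At least 10 globin transcripts were present in 4 gated wells, all live, with 1792 in a single EP18 well. The source of the immune and globin transcripts was not tested.

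Gated MIP-GFP wells were set against gated live wells at E12.5 because the stage in their titles differs. In the fit of 10 plate sums by edgeR's quasi-likelihood test, 0% of 10180 genes were higher in MIP-GFP wells and 0.00982% were lower, a single gene. At an unadjusted p below 0.05 there were 395, and DESeq2 called 1 higher and 10 lower. The gene was Sfrp1, a secreted Wnt inhibitor of mesenchyme, with 3.17 and 2.46 CPM in MIP-GFP wells, against 89.9 and 211 CPM in live wells (log2 -5.58 ± 0.71, edgeR adjusted p = 0.0301). The mesenchyme list summed to 355 and 424 CPM in the gated MIP-GFP wells, against 437 and 1251 CPM in the gated live wells. Col3a1 alone had 0 and 1.64 CPM in the gated MIP-GFP wells, against 16.9 and 211 CPM in the gated live wells, and Sfrp1 had 1359 and 1288 CPM in collagen-rich live wells. Its call was lost without EP18, without EP14 and without EP10, and with a gate at 0.5% or 2% Gcg. The source of the Sfrp1 transcripts in gated live wells was not tested.

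With the experiment as a block 4 genes were higher and 22 lower in MIP-GFP wells. Without EP11 7 were higher and 33 lower, without EP18 2 and 8, and without EP12 0 and 4. None of 17 alpha-cell identity genes and none of 15 granule genes tested passed. With 6 and 11 gated live wells the test is weak: on simulated counts for this comparison it recovered 43% of genes changed by a log2 difference of 2 and 1% of those changed by 1.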

How the data were processed

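Single cells of mouse embryonic pancreas were measured by SORT-seq. The authors deposited expected counts, an estimate of each gene's transcripts in a well from molecular identifiers, with no scaling for depth. The values show a ceiling of 1597 per gene and well. Per the submitters' processing notes, BWA and Seurat were used with the genome build mm10, without versions. The table held 19788 rows, 89 of them spike-ins, which stay out of totals. Of its columns 5760 matched plates of the labels and 1536 did not and were not used. No kept well repeated the profile of another. Single cells were sorted into wells, no doublet caller was run, and leaving out wells above 5 times their plate's median was an alternative. Kept plates at E12.5 held between 2017358 and 9490716 transcripts.

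Expected counts were rounded and summed per experiment and class, with at least 10 wells per sum (5 per plate sum). The test was edgeR's quasi-likelihood test (edgeR 4.0.16 in R 4.3.3), on genes passing filterByExpr, scaled by TMM. P-values were adjusted over all genes by Benjamini-Hochberg, with a threshold of 0.05. For the 4 comparisons groups were stage by class, stage by class with precursor-gated wells, stage, and stage by sort. The spread was estimated from the stages with 2 experiments (EP11 and EP18, EP10 and EP17). Wells were thinned to 5000 transcripts, leaving out shallower ones, for detection shares, mitotic counts and spread (Python 3.11.15, numpy 2.4.6, scipy 1.17.1). Spread was computed for genes with a mean of at least 1 transcript in EP11 and 0.5 in EP18. Shares carry Wilson 95% intervals, which cover counting error only.

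The members and gene lists were chosen with earlier results of these data known. Genes are named if they are among the 12 largest or 12 smallest log2 differences of a comparison, at adjusted p below 0.05, with at least 50 CPM in the higher group and groups that do not overlap, or if they are in a gene list. Of the listed genes 5 had no row. Alternatives were DESeq2 1.42.0, other size factors, no filter on low counts, the experiment as a replicate block, other gates and depths, each experiment left out, wells of a single sort and the wells of a smaller deposited table. The other wells without immune or erythroid transcripts, and sums of at least 5 precursor-gated wells, were added after the data were seen. Both classes of an experiment come from the same plates, so the experiment pairs them. Their deviations from the group means correlated at 0.54 at E12.5 and 0.28 at E15.5 over 12236 genes.

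The fits were tested on simulated counts with 200 changed genes for each comparison. For genes changed by a log2 difference of 2, the share recovered was 57% for gated against other wells, 55% against precursor-gated wells and 95% between stages. For a log2 difference of 1 it was 1%, 4% and 43%. Genes called without a change numbered 4, 11 and 25, and between sorts 1.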

Additional observations from a re-analysis of the deposited data

Results flagged for a closer look

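Among the 24 genes named between stages, 4 were flagged by Dixon's criterion at the 95% level. In each, 1 experiment of the later stages stood far from the other 3. The criterion's chance rate of about 1 in 20 is for normally distributed values. These genes were chosen by a contrast of the same sums and some values lie at 0 CPM, so that rate does not apply as it stands. In all 4 the flagged experiment was EP12 (E13.5), the later experiment nearest to E12.5. Irs4 had 7.04 CPM there, against 0.678, 0 and 0 CPM in EP14, EP10 and EP17. Astn1 had 36.2 CPM there, against 1.36, 1.57 and 4.17 CPM, and Acot7 had 29.2 CPM, against 2.04, 4.72 and 4.17 CPM. Nr2f2 had 20.1 CPM there, against 9.50, 9.45 and 8.33 CPM. E13.5 has a single experiment, so its stage and the experiment cannot be told apart.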

How the results depend on the processing

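Of values for single genes, 1420 of 1651 kept direction and side of the threshold for gated against other wells, 243 of 306 against precursor-gated wells, 577 of 738 between stages and 10 of 15 between sorts. The reversed ones were Neurog3 without EP11 (log2 0.17), Gc (0.90) and Pcsk1 (-0.034) with MIP-GFP plates alone against other wells, Hhex with MIP-GFP plates alone (5.53) against precursor-gated wells, and, between stages, Nnat (4.83) and Serpina1a (-0.34) with live plates alone and Apoa1 with E15.5 alone (-0.44). For Nnat, 1 gated live well of EP11 held 105 transcripts. Causes were not tested.

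Counts, higher and then lower, moved as follows. Gated against other wells gave 3028 and 3541 with the replicate block, 10 and 406 with the smaller deposited table, 53 and 922 with MIP-GFP plates alone, 171 and 112 with live plates alone, 386 and 344 without EP11 and 323 and 583 without EP18. Against precursor-gated wells there were 205 and 614 with the replicate block, 48 and 310 without a filter, 4 higher with DESeq2, 82 lower at a depth of 4000, 2 higher with a gate of 0.5% and 0 with 2%, 0 and 16 with MIP-GFP plates alone, 5 higher with at least 5 wells per sum, and 0 to 7 and 0 to 209 with an experiment left out. Leaving out EP11 was not possible there, nor was a fit of E12.5 alone. Between stages there were 363 and 188 without a filter, 52 lower with MIP-GFP plates alone, 11 and 3 with live plates alone, 16 higher with E15.5 alone, 111 and 63 with E18.5 added, 279 and 147 without EP11, 191 and 122 without EP18, 12 and 11 without EP14, 0 and 0 without EP10 and 3 and 2 without EP17. A replicate block was not possible there because each experiment has 1 stage. Between sorts there were 4 and 22 with the replicate block, 1 and 10 with DESeq2, 2 and 43 without a filter, 10 lower at a depth of 4000, 0 lower with a gate of 0.5% and 5 with 2%, 7 and 33 without EP11, 2 and 8 without EP18, 4 lower without EP12 and 0 without EP14 or EP10. The gated share of the MIP-GFP plates was 66.8% (EP11) and 49.7% (EP18) with a gate of 2%, and 82.7% and 96.7% in the smaller table, where the live EP11 plate had 5.88%. Sums of live plates alone hold few wells (at least 5 each).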

Other observations

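Receptor and nutrient genes of the gated wells have not been described above. Of 8 genes for receptors and sensors of glucagon secretion tested against other wells, Gipr and Sstr3 were higher in gated wells. Of 14 amino acid and nutrient transporter genes, Slc16a10, Slc25a5, Slc38a5 and Slc7a2 were higher and Slc1a5, Slc38a1, Slc38a2 and Slc38a4 lower. The calcitonin receptor gene Calcr had 77.4 and 104 CPM in gated wells, against 7.01 and 4.78 CPM in other wells (log2 3.92 ± 0.37). Between stages 1 of 13 transporter genes passed, Slc7a8, which was lower at E12.5. The glucagon receptor gene Gcgr had at least 1 transcript in 43 of 256 and 11 of 99 gated MIP-GFP wells, and Glp1r had none in any of the 372 gated wells, which allows a share of up to 0.806% of wells with a transcript.

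Th, the tyrosine hydroxylase gene, had 148 and 137 CPM in gated wells of E12.5, against 83.5, 38.0, 26.8 and 16.7 CPM later (log2 1.81 ± 0.24, edgeR adjusted p = 0.0146). It lies outside the rule for named genes and was chosen after its values were seen. Onecut2, a cut homeodomain factor, had 177 and 91.6 CPM at E12.5, against 50.3, 23.8, 22.8 and 16.7 CPM later (log2 2.26 ± 0.30, edgeR adjusted p = 0.0154).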
